A study of Mus musculus with 3 samples.

Results

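Inhibitory receptors are the brakes on mast cell activation, and 9 of their genes were followed here across the arrays of this study: Cd300a, Cd300lf, Lilrb4, Pirb, Fcgr2b, Cd200r1, Sirpa, Cd33 and Pecam1. Their probes were taken by gene name from the non-control spots, which gave 12 probes on 21 spots, of 39429 probes on 43020 spots for 31131 gene names. Cd300lf had 3 probes, Lilrb4 had 2, Fcgr2b had 1 probe spotted 10 times, and each of the others had 1 probe on 1 spot. All cells were mast cells grown from bone marrow (BMMCs) of male C57BL/6 mice lacking Pafah2, an intracellular phospholipase that releases oxidised fatty acids from membrane lipids, and 12 weeks old by the sample labels. In the epoxide group they received omega-3 epoxides, a 2 to 3 mixture of 17,18-EpETE and 19,20-EpDPE at 300 nM, for 12 hours. In the GW9662 group they received 0.5 μM GW9662, which blocks the nuclear receptor PPAR gamma, for the same time, and vehicle cells received DMSO. Every group was Pafah2-deficient and was read on 1 array, so nothing here sets Pafah2-deficient cells against wild type. No comparison has replicate cultures behind it, and no test was made.

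Most of these receptors carry immunoreceptor tyrosine-based inhibitory motifs (ITIMs) in their cytoplasmic tails. Once phosphorylated by Src-family kinases, ITIMs recruit the protein tyrosine phosphatases SHP-1 and SHP-2 or the lipid phosphatase SHIP1, which oppose the tyrosine kinase cascade below the high-affinity IgE receptor. Each receptor senses a different cue, such as exposed membrane lipids, MHC class I, immune complexes, sialic acid or a protein on a neighbouring cell, and they are known for raising the threshold of mast cell degranulation.

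Levels are given as log2 of the processed signal over the 75th percentile of the array, so that 0 is the 75th percentile. Because probes differ in how well they bind, levels are compared between arrays for a probe and not between probes. Where levels of a marker list are summed, the sum is set against the same sum on another array, and it is weighted to the probes with the highest signals. The error of a log2 ratio was taken from copies of the same probe on the same array and came to a technical SD of 0.0821 when epoxides were set over vehicle, 0.0818 when GW9662 was and 0.0786 for the epoxide array over the GW9662 array. Only spot error enters it, not the spread between cultures, labellings or hybridisations. It is the error of a single spot and takes spot errors as independent between arrays, although positions are shared. As a median over probes with copies, it is not fitted to the level or the array row of a given probe. Matched by position, the 10 Fcgr2b copies gave smaller SDs: 0.05 and 0.06 when epoxides and GW9662 were set over vehicle, and 0.02 between the treated arrays. The technical SD may thus be too wide, and a ratio within it may still differ from 0. Spot error below means this technical SD. In such bulk RNA, fewer cells with a transcript and less transcript per cell cannot be told apart.

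Some facts of the arrays touch every value below. Mast cell identity was checked first: 12 of 15 mast cell markers were measured in the comparisons with vehicle, Kit at 5.68, 5.75 and 5.73 and Fcer1a at 6.59, 6.83 and 6.93 on the epoxide, GW9662 and vehicle arrays, while Tpsab1 and Mrgprb1 were not well above background on any array. Of the 12 measured markers 9 were lower than with vehicle on each treated array. Their median log2 ratios were -0.13 for epoxides over vehicle and -0.06 for GW9662 over vehicle. Over all measured genes, only 38.9% were above vehicle with epoxides and 42.2% with GW9662. Once a trend in base composition and signal was removed, the marker medians were 0.0008 and -0.04. Then 6 of the 12 markers were above vehicle with epoxides and 4 with GW9662. Cpa3 lay farthest from vehicle, at 6.93, 7.19 and 7.61, with ratios of -0.68 and -0.42, and of -0.49 and -0.37 with the trend removed. The 15 markers summed to 722, 809 and 882 times the 75th percentile on the epoxide, GW9662 and vehicle arrays, and their part in the receptor values was not tested. Pafah2 itself read -0.08, 0.07 and 0.03, well above background on each array; whether its probe lies in the deleted part is not given in the sources used here, and no wild-type array was analysed here. In the authors' value table the columns of the treated samples hold each other's scanner values. Treated arrays are named by their scanner file's label, and if the table is right, each statement on one treated array belongs to the other treatment. Copies of a probe lay 2-fold or more off the median of its copies in 7.69% of readings in a middle band of array rows, called the disputed rows here, against 0.589% in other rows, and in 0.394% and 0.0263% among probes detected on all arrays. The probes of Cd300a, Cd200r1 and Cd33, the third Cd300lf probe, the second Lilrb4 probe and 3 of the 10 Fcgr2b copies lay in those rows. Among markers named here, so did spots of Kit, Vwf, Cdh5, Siglech, C1qa, S100a8, S100a9 and Mpo. On the epoxide array the log2 ratio to vehicle also ran down as probes grew richer in G and C: its median over all probes was 0.38 below 30% G and C, 0.09 from 35% to below 40%, -0.17 from 45% to below 50% and -0.53 at 60% or more. For GW9662 over vehicle the same medians were 0.08, 0.02, -0.04 and -0.17.

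Every receptor was detected. All 12 probes were well above background on all 3 arrays, and none was saturated. No member probe differed by 2-fold in any comparison, where 2.10% of 19872 measured probes did for epoxides over vehicle, 0.837% of 19827 for GW9662 over vehicle and 1.11% of 20208 for epoxides over GW9662. At 1.5-fold the count of member probes was again 0 in each comparison, beside 9.50%, 1.86% and 5.40% of all measured probes. The largest differences were 1.26-fold higher for Cd300a and 1.36-fold lower for a Lilrb4 probe, both for epoxides over vehicle.

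**Figure D1:**
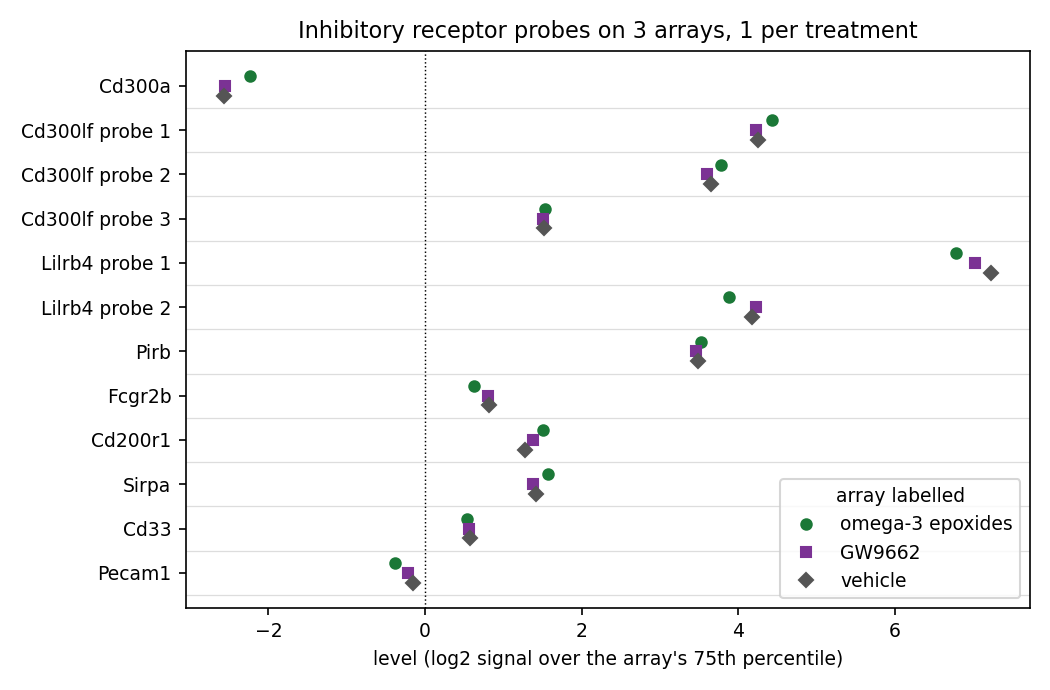
Level of each of the 12 probes (rows) as log2 signal over the array's 75th percentile (horizontal axis) on the epoxide (circle), GW9662 (square) and vehicle (diamond) arrays, 1 array each. The symbols of a probe lie close together in every row, and the largest gap is in the first Lilrb4 probe, at 6.79 with epoxides and 7.24 with vehicle.

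The sequences are shown for their base composition, which the ratios on the epoxide array ran with, and for the overlap between probes. All probes are 60 bases long, and their positions are those of the files on mouse build mm9. Exon and UTR annotation of that build was not used here. Stretches of 30 bases are shown, 5′ to 3′ on the probe strand. The 3 Cd300lf probes come first, since the first and second share 53 bases and are in effect 1 reading, at chr11:114977540-114977599 and chr11:114977533-114977592 on the minus strand. The third lies 196 bases away at chr11:114977796-114977855. Capitals mark AATAAA, the usual signal for polyadenylation, in the first pair, and a run of alternating G and A in the third.
Cd300lf probe 1: tttcagaattgtagaagAATAAAgttgtat
Cd300lf probe 2: gaattgtagaagAATAAAgttgtattgttt
Cd300lf probe 3: tttaaggaggaaGAGAGAGAGAGAGAGAGt
The same capitals mark AATAAA in the probes of Pirb (chr7:3664137-3664196, minus strand) and Cd200r1 (chr16:44794670-44794729, plus strand).
Pirb: tcagagtttggaAATAAAgctagagatttc
Cd200r1: atcaagttgtgcAATAAAgtatgatgaaaa
AATAAA, searched on the probe strand only, was in 4 of the 12 member probes, counting the overlapping Cd300lf pair as 2, and in 12.6% of all 39429 probes. The Cd300a probe (chr11:114765539-114765598, plus strand) ends in a simple repeat, given in capitals.
Cd300a: gtgtgtatgtgtataTGTATGTATGTATGT
Both Lilrb4 probes are shown because their base composition differs, with 35% G and C in the first (chr10:51216160-51216219, plus strand) and 45% in the second, which the files leave unmapped and which is given whole.
Lilrb4 probe 1: agcttctcagaattttgggaatatacttta
Lilrb4 probe 2: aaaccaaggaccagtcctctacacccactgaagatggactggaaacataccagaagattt
The Fcgr2b stretch belongs to the probe with 10 copies (chr1:172890988-172891047, minus strand, 45% G and C), and the Pecam1 probe (chr11:106540864-106540923, minus strand) is given whole as the member probe richest in G and C, at 50%.
Fcgr2b: tacgagattggttcccaatggttgactgta
Pecam1: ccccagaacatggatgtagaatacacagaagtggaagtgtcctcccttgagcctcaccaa
The remaining probes lie at chr2:129457873-129457932 on the plus strand for Sirpa and at chr7:50783849-50783908 on the minus strand for Cd33.

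The CD300 receptors recognise lipids exposed at the outer membrane. Cd300a, an ITIM receptor for phosphatidylserine and phosphatidylethanolamine, had a level of -2.23 on the epoxide array, -2.55 on the GW9662 array and -2.56 on the vehicle array. The epoxide array was thus the high one, and the other arrays were alike to within the spot error. Its log2 ratio was 0.33 for epoxides over vehicle, 4.03 times the technical SD, 0.01 for GW9662 over vehicle and 0.32 for epoxides over GW9662. The probe has 35% G and C, a class in which the epoxide array ran high in general. With a quadratic trend in base composition and signal removed from each array, the epoxide ratio was 0.29 and that of GW9662 was -0.002. Over the processing alternatives on the scanner values that kept the probe, the epoxide ratio stayed positive, from 0.22 to 0.47. Its spot lies in the disputed rows, so there was no value without them. The technical SD is not specific to those rows, and their part in the result was not tested. Cd300a also had no value when only probes at or above the median signal were kept. The probe also ends in the simple repeat shown above, and whether it binds other transcripts was not tested.

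Cd300lf, an ITIM receptor of myeloid cells that binds ceramide and phosphatidylserine, read 4.43, 4.23 and 4.25 in its first probe on the epoxide, GW9662 and vehicle arrays. In the overlapping second probe it read 3.78, 3.61 and 3.65. The third probe read 1.53, 1.51 and 1.53. The overlapping probes were highest with epoxides, whereas the third gave the same level on all arrays to within the spot error. For epoxides over vehicle the log2 ratios were 0.17, 0.13 and 0.01 in that order of probes, and for GW9662 over vehicle they were -0.03, -0.04 and -0.02. The probes have 35%, 28.3% and 43.3% G and C, and the order of the first and second was not that of the class medians, which were higher below 30% than from 35% to below 40%. After removal of the trend the epoxide ratios were 0.09, -0.19 and 0.07, so the second probe turned from above to below vehicle although it shares most of its bases with the first.

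The leukocyte immunoglobulin-like receptors include Lilrb4 (gp49B), an ITIM receptor that binds an integrin and restrains degranulation in mouse mast cells. Its first probe had a level of 6.79 on the epoxide array, 7.03 on the GW9662 array and 7.24 on the vehicle array. The processed signals were 255636, 261033 and 288584, and none was saturated. Its second probe read 3.89 with epoxides, 4.23 with GW9662 and 4.18 with vehicle. In both probes the epoxide array was lowest, and they disagreed on GW9662, which lay below vehicle in the first and close to it in the second. The log2 ratios for epoxides over vehicle were -0.45 and -0.29, or -5.46 and -3.56 in units of the technical SD, and those for GW9662 over vehicle were -0.21 and 0.06. Epoxides over GW9662 gave -0.24 and -0.35.

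Among member probes, the first of Lilrb4 departed most from the trend in base composition and signal for epoxides over vehicle. With the trend removed, Cd300a came next, at 0.29 on the other side of 0. The second Lilrb4 probe, at 45% G and C, had -0.29, between the quartiles of its class at -0.33 and -0.05. The first, at 35% G and C, lay below vehicle on the epoxide array, where the median over probes of 35% to below 40% was 0.09. The brightest probes ran low there as well: among the 488 probes with a level of 6 or more the median was -0.29, with quartiles of -0.37 and -0.18, and for GW9662 over vehicle it was -0.05. With the trend in base composition and signal removed, the ratios for epoxides over vehicle were -0.33 and -0.12 in the 2 probes. Both stayed negative in every alternative on the scanner values, from -0.45 to -0.14 in the first and from -0.29 to -0.12 in the second. Quantile normalisation gave the value nearest 0 for the first probe, and it took the ratio to GW9662 to -0.02. The neighbouring gene Lilr4b, an activating-type relative that is named Gp49a on the array, read 3.99, 4.33 and 4.28. The epoxide array was lowest for it, as in the second Lilrb4 probe, and also in Cd47 and Milr1 below. With the trend removed, the ratios for epoxides over vehicle were -0.19 for Lilr4b, -0.03 for Cd47 and -0.0007 for Milr1. The Lilr4b and Lilrb4 probes shared no run of 10 or more bases. Probes were compared with each other and not with transcripts, so binding of a probe to the transcripts of both genes was not tested.

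Pirb, the ITIM receptor for MHC class I and for inhibitors of axon growth, had levels of 3.52, 3.46 and 3.49 on the epoxide, GW9662 and vehicle arrays. All lay within the spot error of each other, with log2 ratios of 0.04 for epoxides over vehicle and -0.03 for GW9662 over vehicle. Its longest run shared with a probe of the activating relatives was 12 bases, with Pira7. With the trend removed the epoxide ratio changed sign, to -0.08.

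Fcgr2b is the low-affinity IgG receptor that recruits SHIP1 when immune complexes draw it to the IgE receptor, and its 10 copies show the spot error directly. They averaged 0.63 ± 0.06 on the epoxide array, 0.81 ± 0.05 on the GW9662 array and 0.82 ± 0.07 on the vehicle array (SD of 10 copies on 1 array). The epoxide copies ran from 0.48 to 0.72 with a median of 0.63, the GW9662 copies from 0.70 to 0.89 with a median of 0.81, and the vehicle copies from 0.69 to 0.92. Ranges overlapped slightly between epoxides and each of the other arrays, but spot by spot the order was regular. Set against vehicle at the same array position, all 10 epoxide copies were lower, by a log2 ratio of -0.20 ± 0.05. Against GW9662 all 10 were lower too, by -0.18 ± 0.02. GW9662 over vehicle gave -0.02 ± 0.06, with 5 copies above 0 and 5 below. The copies share 1 RNA sample and 1 hybridisation per array, so their agreement says nothing about other cultures. At 45% G and C the probe is in a class whose median was -0.17 for epoxides over vehicle, and with the trend removed its ratio was -0.09. Without the 3 copies in the disputed rows it was -0.18.

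**Figure D2:**
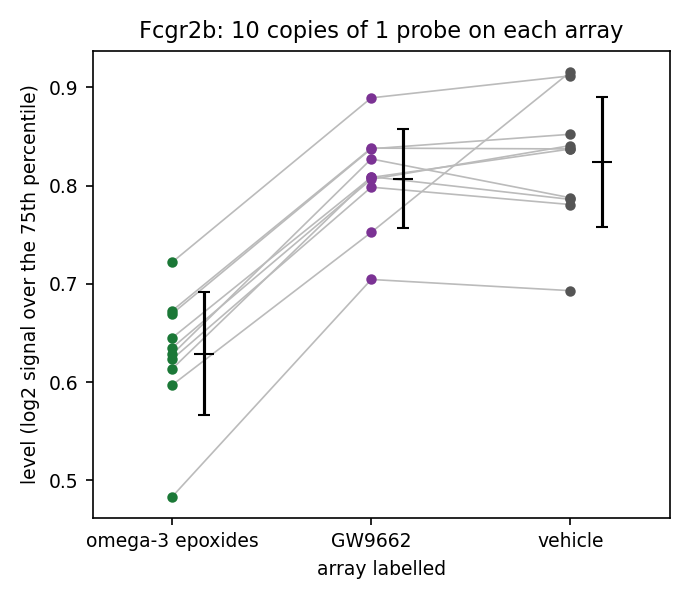
Level (log2 signal over the 75th percentile) of the 10 copies of the Fcgr2b probe on the arrays labelled omega-3 epoxides, GW9662 and vehicle; lines join copies at the same array position, and bars beside the points give the mean ± SD of the copies. Every epoxide copy lies below its partners on the GW9662 and vehicle arrays, while the lines between GW9662 and vehicle cross.

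Receptors for proteins on other cells were Cd200r1 and Sirpa. Cd200r1 binds CD200 and, lacking an ITIM, signals through the adaptors DOK2 and DOK1 and the Ras GTPase activator RASA1. It read 1.505, 1.38 and 1.28 on the epoxide, GW9662 and vehicle arrays, an order in which epoxides and vehicle lay 2.77 technical SDs apart and GW9662 within 1.60 of each neighbour. The log2 ratios were 0.23 for epoxides over vehicle and 0.10 for GW9662 over vehicle, the highest value of any member for GW9662. With the trend removed they were 0.07 and 0.06.

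Sirpa, the ITIM receptor for the "do not eat me" protein CD47, read 1.57 on the epoxide array, 1.38 on the GW9662 array and 1.42 on the vehicle array. The epoxide array was again the high one. Its log2 ratio to vehicle was 0.15 and its ratio to GW9662 was 0.18. Its probe has 35% G and C, and with the trend removed the ratio to vehicle was -0.01.

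Cd33 and Pecam1 complete the set. Cd33 is a sialic acid binding receptor that is inhibitory in human myeloid cells. It had levels of 0.54, 0.57 and 0.57 on the epoxide, GW9662 and vehicle arrays, and no ratio exceeded the spot error, with -0.03 for epoxides over vehicle and -0.01 for GW9662 over vehicle. Pecam1, an ITIM-bearing adhesion molecule that binds itself on neighbouring cells, read -0.38, -0.22 and -0.15. Vehicle was highest and epoxides lowest, with a log2 ratio of -0.23 for epoxides over vehicle and -0.07 for GW9662 over vehicle. With the trend removed both were near 0, at -0.005 and -0.01. Pecam1 is also strong in endothelial cells and platelets, and markers of both were checked. Of 6 endothelial markers 3 were measured in the comparisons with vehicle, with medians of -0.15 for epoxides over vehicle and -0.01 for GW9662 over vehicle, which were 0.10 and 0.07 with the trend removed. Endothelial Emcn was not well above background on any array, nor was Cdh5 on the epoxide or vehicle array. Summed linear levels of the 6 markers were 11.1, 13.3 and 14.8 times the 75th percentile on the epoxide, GW9662 and vehicle arrays, with 97.2%, 96.8% and 97.6% of the sum from Vwf. The 6 megakaryocyte and platelet markers summed to 24.9, 25.2 and 26.9, with 82.7%, 83.6% and 82.5% from Gp1ba and 5 of 6 measured. Their part in the Pecam1 values was not tested.

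Several of these receptors are also found on other myeloid cells, so markers of those cells were read as summed linear levels in units of the 75th percentile. The 11 macrophage and monocyte markers found on the array summed to 18.6, 15.8 and 17.5 on the epoxide, GW9662 and vehicle arrays, with 90.3%, 88.4% and 89.4% of the sum from Cx3cr1. Of 7 measured, 2 were higher and 5 lower with epoxides than with vehicle, with a median of -0.21 that was 0.11 with the trend removed, and Mrc1, C1qa and Ccr2 were not well above background on any array. The 11 neutrophil and precursor markers summed to 35.7, 45.01 and 50.6, with 96.02%, 95.4% and 96.04% from Csf3r, 5 measured in the comparisons with vehicle, and S100a8, S100a9 and Ltf not well above background on any array. Mpo ran another way, at -5.42, -2.43 and -5.48, with a spot in the disputed rows and a vehicle value not well above background. Basophil markers summed to 20.3, 19.5 and 22.3 with 4 of 5 measured, and dendritic cell markers to 32.6, 35.6 and 38.9 with 3 of 7 measured and over 99% from Siglech on each array. The part of other cells in the receptor values was not tested.

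Across the set, 7 of 12 probes were above vehicle with epoxides and 5 below, with a median log2 ratio of 0.02. The counts and medians here, and the correlations below, take the overlapping Cd300lf pair as separate probes. All Cd300lf probes were among those above vehicle, the third at only 0.01. Over all 19872 measured probes the median was -0.07, and 38.7% were above vehicle. With GW9662, 3 probes were above vehicle and 9 below, with a median of -0.02 for the members and -0.02 for all 19827 measured probes. For GW9662 over vehicle 11 of the 12 member ratios lay within 2 technical SDs of 0, all but that of the first Lilrb4 probe. For epoxides over vehicle 5 lay within that distance. Epoxides over GW9662 shares the epoxide array with the first comparison and gave 7 probes above and 5 below, with a median of 0.04.

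**Figure D3:**
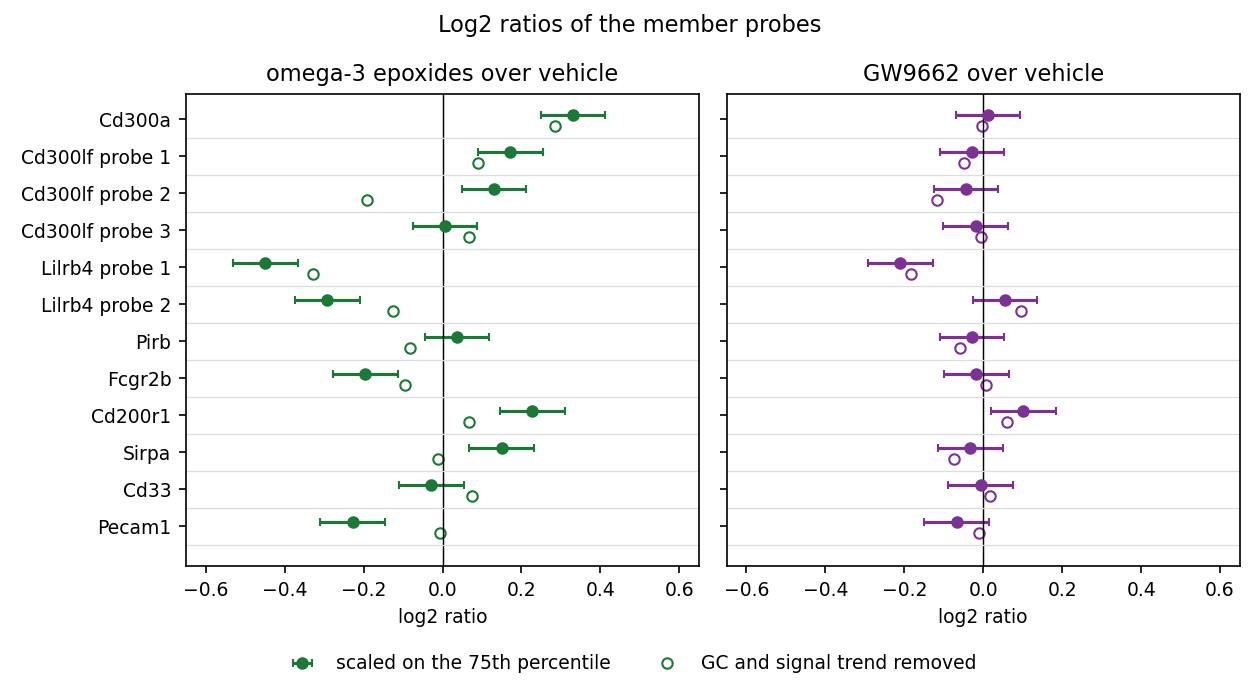
Log2 ratio of each member probe for epoxides over vehicle (left) and GW9662 over vehicle (right); filled points are scaled on the 75th percentile, with bars of 1 technical SD either side from copies of a probe, and open points have the trend in base composition and signal removed. Filled points spread from -0.45 to 0.33 on the left and from -0.21 to 0.10 on the right.

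Members were poorer in G and C than the array in general, with a median of 35% against 43.3% over the 19720 probes measured on all arrays. Across the 12 probes the log2 ratio for epoxides over vehicle had a correlation with G and C share of r = -0.53, and across all measured probes of that comparison r = -0.49. These are descriptions over probes that share the same arrays. For GW9662 over vehicle they were 0.10 and -0.21. Of the 6 member probes in the class from 35% to below 40%, 5 were above vehicle on the epoxide array, as was the median of the class, and the first Lilrb4 probe was below.

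**Figure D4:**
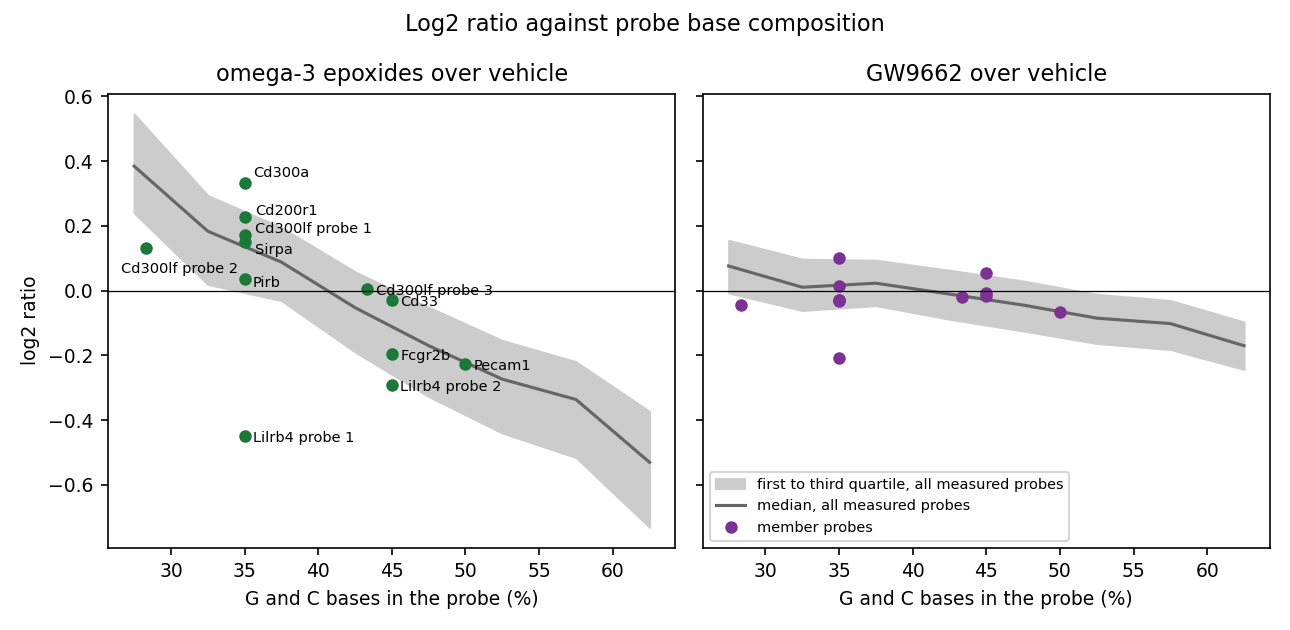
Log2 ratio (vertical axis) against the G and C content of the probe (horizontal axis, %) for epoxides over vehicle (left) and GW9662 over vehicle (right). The line is the median and the band the range between the quartiles of all measured probes in classes of base composition. On the left, member probes lie on both sides of the falling line, several of them outside the band. The first Lilrb4 probe, at -0.45, lies farthest from the line.

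The genes around these receptors were read by each gene's brightest probe. Of 78 pathway genes found on the array in 5 lists, 55 were measured. For epoxides over vehicle 1 of them was 2-fold apart, where 2.29% of 15818 measured genes were, and for GW9662 over vehicle none was, where 0.823% of 15794 were. The median log2 ratio over all measured genes was -0.07 for epoxides over vehicle and -0.02 for GW9662 over vehicle, and 0.004 and -0.003 with the trend removed. Of all measured genes 38.9% were above vehicle with epoxides and 42.2% with GW9662, beside which the counts of higher and lower genes below are to be read. The gene 2-fold apart was Mag, a myelin ligand of Pirb. Its log2 ratio for epoxides over vehicle was -1.06, and -0.62, short of 2-fold, with the trend removed. Its levels were -5.29, -4.87 and -4.23 on the epoxide, GW9662 and vehicle arrays. Each lay within 1 log2 unit of the dimmest probe still flagged as well above background on that array. Those probes lay at -5.57, -5.03 and -4.84. The Mag spot lies in the disputed rows. Spots of Fcgr3, Pira6, Ptpn6, Ptpn11, Inpp5d, Dok2, Fcer1g, Ms4a2, Lcp2, Siglece, Milr1 and H2-K1 lie there too.

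Among the ligands of the receptors, Mag included, 8 of 12 genes were measured, 2 higher and 6 lower with epoxides than with vehicle, and 5 higher and 3 lower with GW9662. The list medians were -0.12 and 0.02. With the trend removed they were -0.02 and 0.04, with 3 and 5 genes higher. Cd47, the ligand of Sirpa, read 4.90, 5.18 and 5.16, a log2 ratio of -0.26 for epoxides over vehicle that was -0.03 with the trend removed. Of the MHC class I genes that Pirb can bind, H2-D1 had ratios of -0.38 with epoxides and -0.19 with GW9662, B2m had -0.12 and -0.03, and H2-K1 had 0.05 and 0.02. Cd200, the ligand of Cd200r1, was not well above background on any array.

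Activating relatives pair with signalling chains and use related extracellular domains. Of 19 found, 13 were measured, 3 higher and 10 lower with epoxides, with a median of -0.10 that stayed at -0.10 with the trend removed, and 7 higher and 6 lower with GW9662, with a median of 0.03. Cd300ld read -3.80, -3.63 and -3.32, giving -0.48 for epoxides over vehicle and -0.31 for GW9662 over vehicle. Fcgr3, the activating IgG receptor opposite Fcgr2b, read 0.86, 1.004 and 1.09, giving -0.23 and -0.09. Pira6 and Lilra6, relatives of Pirb with probes of 53.3% and 48.3% G and C, had -0.40 and -0.35 with epoxides, and -0.09 and -0.16 with the trend removed. Pira2 and Pira7, at 35%, had 0.18 and 0.15, and 0.07 and 0.02 with the trend removed.

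Downstream of the receptors, 11 of 12 kinases, phosphatases and adaptors were measured, 5 higher and 6 lower with epoxides and 4 higher and 7 lower with GW9662. The list medians were -0.11 and -0.07. With the trend removed they were 0.04 and -0.03, with 7 and 3 genes higher. Ptpn6 and Ptpn11, which encode SHP-1 and SHP-2, had log2 ratios of -0.21 and -0.15 with epoxides and of -0.08 and -0.07 with GW9662. With the trend removed the epoxide ratios were 0.08 and -0.01. Inpp5d, which encodes SHIP1, gave 0.07 and 0.05. The adaptors Dok1 and Dok2 gave -0.11 and -0.20 with epoxides and -0.09 each with GW9662, and the epoxide ratios were 0.13 and -0.01 with the trend removed. Csk, the kinase that restrains Src-family kinases, had a level of 1.60 with epoxides and 1.24 with GW9662, with log2 ratios of 0.60 for epoxides over vehicle and 0.24 for GW9662 over vehicle, and 0.33 and 0.18 with the trend removed. Lyn, the Src-family kinase that phosphorylates ITIMs, gave 0.30 and 0.03, the first being 0.18 with the trend removed. Rasa1 read -0.55, -0.79 and -0.25, lower on both treated arrays, with -0.30 and -0.54, and -0.53 and -0.59 with the trend removed.

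Of the IgE receptor and adaptor chains that these receptors oppose, all 14 were measured, with 4 higher and 10 lower with epoxides and 7 each way with GW9662. The list medians were -0.09 and -0.02. With the trend removed both were 0.02, with 7 genes higher with epoxides and 10 with GW9662. The receptor chains Fcer1a, Fcer1g and Ms4a2 had ratios of -0.34, -0.38 and 0.09 with epoxides and -0.10, -0.06 and 0.04 with GW9662. With the trend removed the first 2 were -0.24 and -0.03 with epoxides. Lcp2, an adaptor also called SLP-76, stood at 0.38 for GW9662 over vehicle on a spot in the disputed rows.

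Inhibitory receptors outside the set were found for 21 of 22 names and measured for 9. Milr1 (allergin), an ITIM receptor of mast cells, read 6.47, 6.86 and 6.82, a ratio of -0.35 for epoxides over vehicle and 0.04 for GW9662 over vehicle; with the trend removed the epoxide ratio was -0.0007. Siglece read 0.25, 0.58 and 0.73, giving -0.47 and -0.15, and -0.18 and -0.06 with the trend removed. Pilra was lower on both treated arrays, at -0.26 and -0.22, and at -0.16 and -0.19 with the trend removed. Klrg1 and Cd274 were higher with epoxides, at 0.26 and 0.23, and at 0.25 and 0.07 with the trend removed. The list's median for epoxides over vehicle was -0.12, and -0.0007 with the trend removed.

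**Figure D5:**
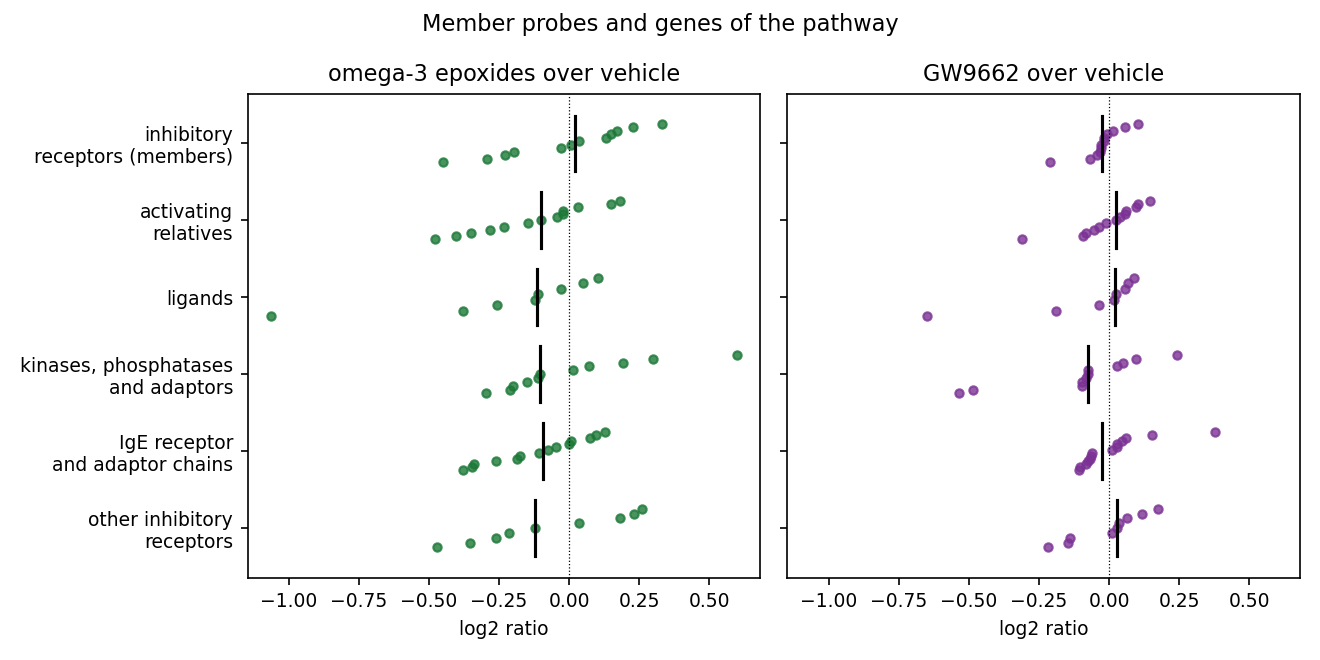
Log2 ratios of the member probes and of the measured genes of 5 pathway lists (rows) for epoxides over vehicle (left) and GW9662 over vehicle (right); each point is a probe or gene and the bar is the median of the row. The medians lie between -0.12 and 0.02 on the left and between -0.07 and 0.03 on the right, and Mag is the point at -1.06.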

How the data were processed

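Total RNA (200 ng per labelling) was hybridised with Cy3 on 1-colour Agilent arrays, 1 per group, with signals extracted by Agilent Feature Extraction 11.5.1.1, per the submitters' processing notes. gProcessedSignal is a deposited intensity, background-subtracted and detrended within the array, per the file headers. The authors' deposited value table holds a linear ratio: each column equals a processed intensity divided by that array's 75th percentile (log2 quotients constant to within 0.001), with column medians of 0.0500, 0.0413 and 0.0524 for epoxides, GW9662 and vehicle. It is neither on a log scale nor centred by gene, but the columns of the treated samples hold exchanged scanner values, and the scanner files were used as attached.

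Levels are log2 intensity minus the log2 75th percentile of spots with control type 0. Spots with outlier flags (221, 251 and 230 on the epoxide, GW9662 and vehicle arrays) were left out and copies averaged. No spot was saturated, and 54.6%, 53.3% and 52.3% were well above background. Measured means that over 1 in 2 copies had the well-above-background flag on each array compared, and calls needed 2-fold. The number of arrays limits the precision: with 1 per group there is no SE and no p. Technical SDs came from 219 probes with at least 5 copies. Probes were named through RefSeq for 28330 of 39429 accessions, 1403 with a changed symbol, and otherwise by the array's name. Named are all members, up to 4 genes per list farthest from 0 in a comparison with vehicle, and genes listed by role. Alternatives were normexp with offset 50 (limma 3.58.1, R 4.3.3), quantile and cyclic loess normalisation, scaling on detected probes, the authors' table, other filters on dim probes, outlier spots kept, leaving out rows 181 to 400 of 532, and removal of a quadratic trend in base composition and signal, also jointly. Counts and trend removal were tested on simulated data. The members, the 13 lists of 150 genes and the alternatives were chosen with earlier results of these data known.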

Additional observations from a re-analysis of the deposited data

How the results depend on the processing

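No member probe reached 2-fold or 1.5-fold under any alternative run, in any comparison. For each comparison, 8 of the 12 member ratios kept their sign under every alternative on the scanner values that gave them a value. For epoxides over vehicle the exceptions, when the trend in base composition and signal was removed, were the second Cd300lf probe (-0.19), Pirb (-0.08), Sirpa (-0.01) and Cd33 (0.07), and each of these was within 2 technical SDs of 0 as scaled. Leaving out the disputed rows left 7 of the 12 probes with a value. Keeping only probes at or above the median signal left 10, without Cd300a and Pecam1. Among probes that kept a value, no choice on dim probes or outlier spots changed a member ratio. Leaving out the disputed rows alone changed only that of Fcgr2b. These alternatives could thus not turn the sign of a probe with 1 spot. For GW9662 over vehicle 10 of the 12 ratios lay within 1 technical SD of 0, where a kept sign says little. With the authors' value table, the ratios for epoxides over vehicle and for GW9662 over vehicle are exchanged by its construction: Cd300a then stood at 0.01 for epoxides and 0.33 for GW9662, and the first Lilrb4 probe at -0.21 and -0.45. No paired analysis was possible because each group has 1 array. Differences between cultures cannot be gauged from these arrays.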
